A study of Sorghum bicolor with 24 samples.

Results

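The response of sorghum shoots to osmotic stress was described from 6 RNA-Seq libraries, 3 of shoots treated with PEG and 3 of shoots given water, out of 24 libraries in the whole series. The libraries were chosen by their labels alone: shoot tissue, with 20% PEG-8000 (replicates 1 to 3) or with H2O (replicates 1 to 3). All plants were Sorghum bicolor line BTx623, grown in Hoagland's solution and harvested at 9 d, after PEG or water had been added to that solution for 27 h. PEG was thus applied to the roots, and the shoots were not in contact with it. Each library pooled RNA from several hydroponic buckets of 1 experiment, so that replicate numbers 1, 2 and 3 stand for separate experiments and plant-to-plant spread is averaged within a library. Shoots treated with NaOH, the solvent control of a treatment with 20 µM ABA, were grown beside them in the same experiments and were used here as a second control. Bases were called with version 1.5 of the sequencer's RTA software for replicates 1 and 2 and with version 1.6 for replicate 3. NaOH shoot replicate 2 was the exception, with version 1.6 and a run label different from that of the other replicate 2 libraries. An effect of its separate run was not tested. The comparison asks which transcripts of the leaf and stem change when the roots stand in a solution of low water potential.

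Plants that lose water accumulate abscisic acid (ABA), a hormone made by cleavage of carotenoids, and ABA closes stomata and switches on protective genes. The protective products include dehydrins and other late embryogenesis abundant (LEA) proteins, which are hydrophilic proteins that accumulate in drying seeds, compatible solutes such as proline and glycine betaine, and molecular chaperones. Growth, nutrient uptake and the synthesis of photosynthetic proteins commonly decline at the same time. Sorghum is a C4 grass, in which carbon is first fixed by phosphoenolpyruvate carboxylase in the mesophyll.

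The 6 libraries held 14137037 to 22568484 reads on 34145 gene models, read here as aligned bases divided by 50. The 100 most abundant genes took 22.3% to 25.1% of the reads with PEG and 27.8% to 30.5% in water. The tissue was as labelled: the 8 described chlorophyll a-b binding genes together gave 22345 to 43968 CPM (reads scaled to a common library total) in the 6 shoot libraries against 15.2 CPM in NaOH roots. The levels below are normalized reads, that is, reads scaled to a common effective library size, and are comparable between libraries but not between genes of different length. RNA was taken from whole shoots, in which fewer cells of a type and less RNA per cell cannot be told apart. H2O shoot replicate 2 stood apart from the other H2O libraries. Its Spearman correlation over the 22667 tested genes was 0.951 with H2O replicate 1 and 0.971 with H2O replicate 3, whereas replicates 1 and 3 correlated at 0.985. It was closest to NaOH shoot replicate 2 (0.988). It lay outside the range of the other H2O libraries in 78.0% of genes, compared with 70.5% for H2O replicate 1 and 44.8% for H2O replicate 3. Of these genes, 78.1% lay on the side of the PEG mean for replicate 2, against 54.1% and 49.4% for replicates 1 and 3. Results are given with all libraries, and for the main counts and many genes also without this one.

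A gene was called when its adjusted p was below 0.05, its level differed by at least 2-fold (a log2 fold change of 1) and its median depth was at least 2X in 1 of the groups. By the quasi-likelihood test of edgeR, with p-values adjusted after Benjamini and Hochberg, 1072 of 22667 genes (4.73%) were called, 619 raised (2.73%) and 453 lowered (2.00%) in PEG shoots. When H2O replicate 2 was left out, 2052 genes (8.96%) were called, 1250 raised (5.46%) and 802 lowered (3.50%). Of the 1072 calls, 996 were made in both fits, 572 raised and 424 lowered, and none changed direction. The other 76 were called only with all libraries, and 1056 were called only without H2O replicate 2. The split between directions depended on the scaling, since 57.7% of the calls were raised with TMM factors, 50.8% with DESeq2 size factors and 77.5% with library totals alone, a scaling that moved the median over all tested genes to 0.21 (log2).

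**Figure D1:**
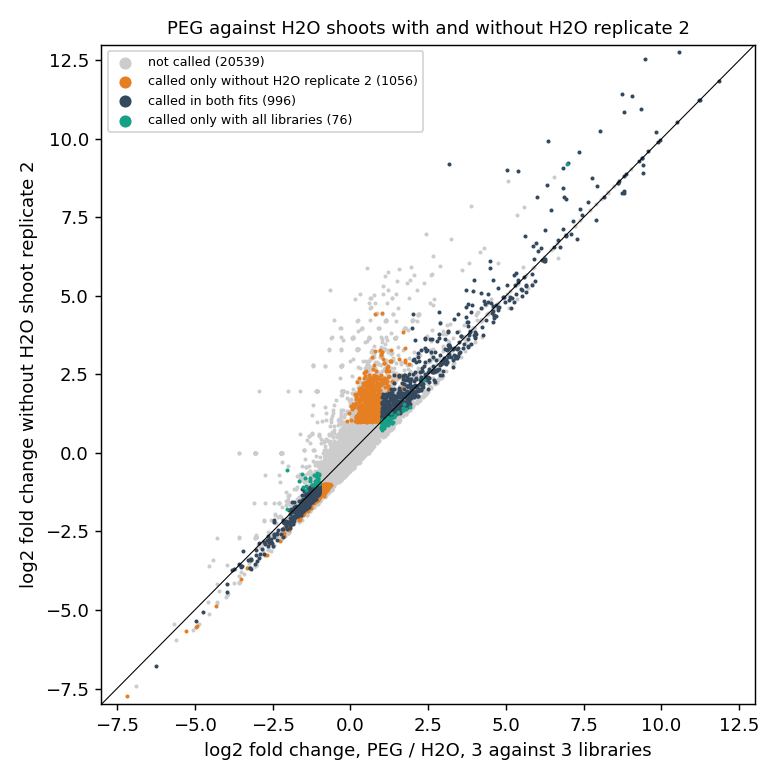
Fitted log2 fold change (PEG over H2O shoots) of each gene with all 6 libraries (horizontal axis) against the value without H2O shoot replicate 2 (vertical axis). Of the 996 genes called in both fits, those raised had a median of 2.02 with all libraries and 2.16 without that library. Some lie well off the diagonal, such as Sb01g012640 (9.47 and 12.5). The 1056 genes called only without that library (orange) include many raised genes above the diagonal. Genes beyond the axis limits, such as Sb01g046000 (13.54 and 13.56), are not in view. For genes with no read in a group the fitted value depends on the prior count and is not a measured fold.

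Genes were grouped by keywords in the descriptions that the study gives for genes it called in any of its comparisons. Of the 3990 described genes tested here, 19.8% were called with all libraries, 12.9% raised and 6.84% lowered. These descriptions cover genes that the study chose partly on these samples, so the counts below are not independent evidence of a direction and are to be read against these shares. The shares are higher without H2O replicate 2: 480 described genes were raised in both fits and 154 only without it, and 252 and 123 were lowered. Shares of described genes against NaOH shoots were not counted. The median log2 fold change of described genes was 0.07 and 0.00 over all tested genes.

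The most uniform group was that of LEA proteins and dehydrins, in which 8 of 8 members were raised (median log2 fold change 7.46). Their summed level was 41132 to 42692 normalized reads in the PEG libraries and 990 to 1901 in the H2O libraries. Dehydrin DHN1 (Sb09g018420; chromosome 9, bases 46038022 to 46039089 of sbi1) had 11503, 20968 and 13104 normalized reads in PEG replicates 1, 2 and 3 and 21.9, 102.6 and 57.4 in the H2O libraries. The groups were separated by more than 100-fold, with a log2 fold change of 7.95 ± 0.63 (SE, n = 3 against 3, edgeR adjusted p = 8.1e-08). The LEA gene Sb09g027110 had 11556, 10511 and 10964 reads against 3.4, 54.1 and 4.5. As for DHN1, the highest H2O library was replicate 2, and the log2 fold change was 9.05 ± 1.24 (edgeR adjusted p = 5.2e-05). The dehydrin Sb04g032250 was already abundant in water (268, 1051 and 379 reads) and reached 9753, 5899 and 9995 with PEG. The dehydrin-like Sb10g003700 and the WSI18 homolog Sb03g032380, a water-stress protein first described in rice, each had at least 1074 reads in every PEG library, and their highest H2O values, 16.6 and 13.9, were both in replicate 2. The hydrophobic LEA-like gene Sb02g010080 was the only member whose call was lost without H2O replicate 2. It had 31, 129 and 59 reads with PEG and a single read in all H2O libraries together, a ratio of 158 (95% Poisson interval 28.4 to 6244, counting error only), and its edgeR adjusted p went from 0.047 to 0.083. In Sb01g036790 (LEA protein 1), PEG replicate 2 (260 reads) was well below replicates 1 and 3 (1438 and 1696), and all stood above the H2O range of 9.0 to 12.5.

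**Figure D2:**
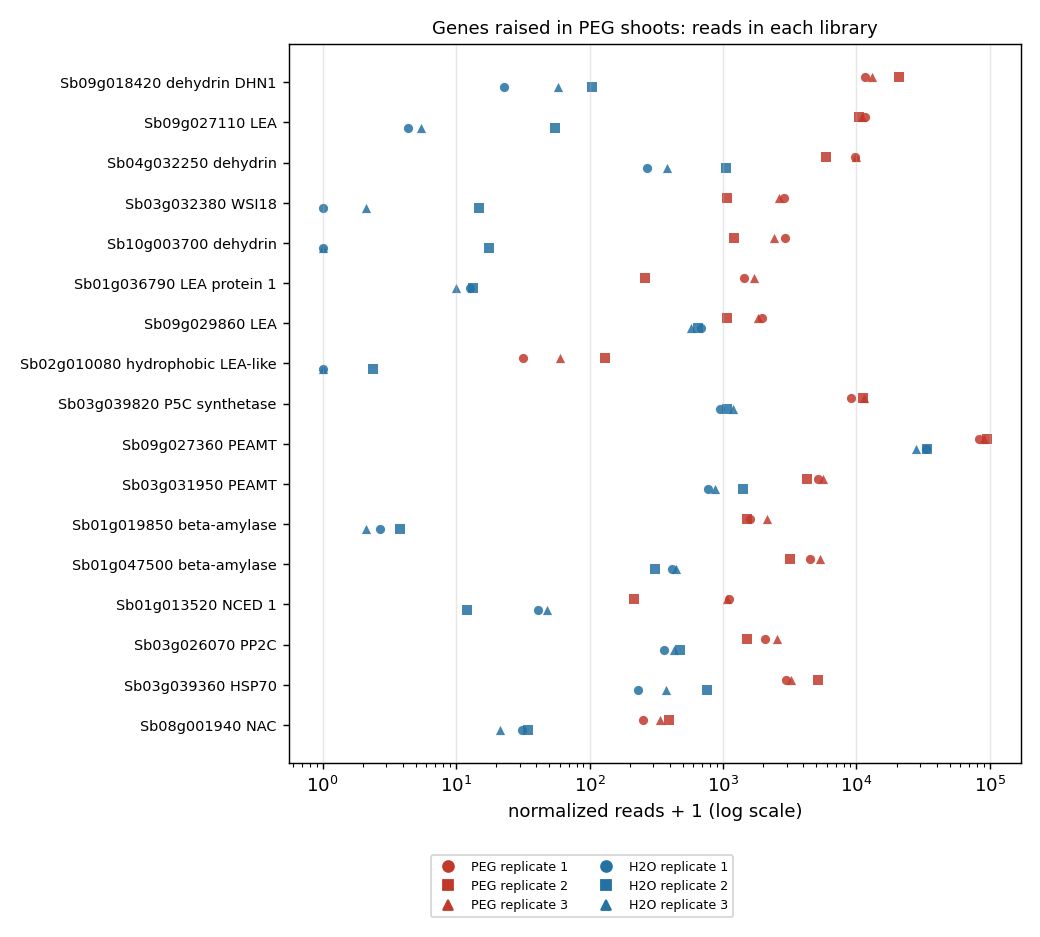
Normalized reads plus 1 (log scale) of 17 genes raised in PEG shoots, 1 point per library (red PEG, blue H2O; circle, square and triangle are replicates 1, 2 and 3). In every gene the 3 PEG points lie above the 3 H2O points, and H2O replicate 2 is the highest blue point in most of the LEA and dehydrin genes. LEA, late embryogenesis abundant; PEAMT, phosphoethanolamine N-methyltransferase; NCED, 9-cis-epoxycarotenoid dioxygenase; PP2C, protein phosphatase 2C.

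Among the genes of compatible solutes, 3 were raised and 2 lowered. Delta-1-pyrroline-5-carboxylate synthetase (Sb03g039820; chromosome 3, bases 67459017 to 67465926), the enzyme that commits glutamate to proline, had 9086, 11184 and 11309 normalized reads with PEG and 946, 1065 and 1180 in water. The log2 fold change was 3.31 ± 0.19 (edgeR adjusted p = 2.3e-09) and was the same, 3.31, without H2O replicate 2. Proline dehydrogenase (Sb01g029660), which degrades proline, went the other way with 59, 176 and 66 reads against 204, 269 and 201, but its call at -1.17 ± 0.35 (edgeR adjusted p = 0.027) was lost without H2O replicate 2 (-1.02, edgeR adjusted p = 0.053). Of 4 genes of choline and glycine betaine synthesis, 2 were raised. In all 4 every PEG library was above every H2O library. Such a separation upwards was shown by 13.8% of all genes, and its share among described genes was not counted. Both raised genes encode phosphoethanolamine N-methyltransferase, which makes the precursor of choline. A further gene described as this enzyme, Sb04g032625, had 53.2, 73.5 and 79.3 reads against 42.1, 45.8 and 41.6. It was not called (0.67 ± 0.24, edgeR adjusted p = 0.058), but was called raised against NaOH shoots (1.24). Sb09g027360 had 82514, 95484 and 89931 reads against 33013, 34041 and 27880 (log2 fold change 1.497 ± 0.16, edgeR adjusted p = 3.1e-06), and Sb03g031950 had 5166, 4231 and 5658 against 773, 1399 and 875 (2.30 ± 0.23, edgeR adjusted p = 1.8e-06). Betaine aldehyde dehydrogenase (Sb07g020650) had 9179, 8808 and 9243 reads against 4875, 4456 and 5109, a log2 fold change of 0.92 ± 0.11 that stayed below the 2-fold limit. None of the 6 genes that keywords placed under raffinose and trehalose synthesis was raised with TMM scaling. Genes whose description names no such enzyme are not in that list. Among them is the WSI76 homolog Sb02g043450, described below, which was called raised with all libraries (log2 fold change 1.69). Galactinol synthase 3 (Sb01g037090), which makes the galactosyl donor for raffinose, had 3944, 2823 and 4867 reads against 1685, 1597 and 2555. The groups were separated, but its log2 fold change of 0.99 (edgeR adjusted p = 0.010) lay just below the limit, and it was called with library totals (1.20). The trehalose-phosphatase Sb04g027650 was lowered (37, 34 and 52 reads against 81, 93 and 87).

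Of 5 described genes of ABA synthesis and breakdown, 1 was raised. NCED 1 (Sb01g013520; chromosome 1, bases 12577208 to 12579043), 9-cis-epoxycarotenoid dioxygenase, the rate-limiting enzyme of ABA synthesis, had 1106, 216 and 1075 normalized reads with PEG against 40.4, 11.1 and 47.3 in water (log2 fold change 4.59 ± 0.79, edgeR adjusted p = 0.00046). Replicate 2 was the lowest library in both groups. The related and more abundant Sb04g030640 (NCED 2) had 6560, 3148 and 6040 reads against 14092, 7300 and 14682. Its log2 fold change of -1.20 ± 0.43 missed the threshold (edgeR adjusted p = 0.063), passed without H2O replicate 2 (-1.45, edgeR adjusted p = 0.017) and passed with the replicate number as a block (-1.20, edgeR adjusted p = 0.00095). The ABA 8'-hydroxylase Sb04g030660, which breaks ABA down, had 542, 356 and 486 reads against 239, 269 and 172, at the limit of the threshold with all libraries (1.03 ± 0.35) and past it without H2O replicate 2 and with the block (1.18, edgeR adjusted p = 0.037, and 1.04, edgeR adjusted p = 0.020). Among 6 SnRK2 kinases and protein phosphatases 2C, the kinase and phosphatase families that pass on and dampen the ABA signal, 4 were raised, and 3 without H2O replicate 2, where the phosphatase Sb01g007340 went from 1.08 to 0.92 and lost its call. The phosphatase Sb03g026070 had 2050, 1504 and 2530 reads against 358, 476 and 429 (2.27 ± 0.15, edgeR adjusted p = 1.7e-08). The kinase SAPK3 (Sb01g028760) had 496, 281 and 433 against 61, 116 and 119, while SAPK1 (Sb01g033570) overlapped between groups (950, 1551 and 1033 against 633, 970 and 933). Within each experiment SAPK1 was higher with PEG. With the block its log2 fold change was 0.47 (edgeR adjusted p = 0.0036), below the 2-fold limit. The phosphatase Sb01g039615 went the other way at few reads (4.9, 2.4 and 3.6 against 5, 8.3 and 16.9). It was not called with all libraries (-1.52 ± 0.55, edgeR adjusted p = 0.067). Without H2O replicate 2 (-1.66, edgeR adjusted p = 0.048) only the depth cutoff kept it from a call.

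The list of described heat shock proteins and heat stress factors had 12 raised and 0 lowered among 21 members, and 14 raised without H2O replicate 2 (median log2 fold change 2.17 and 2.62). A 70 kDa heat shock protein (Sb03g039360), an ATP-driven chaperone, had 2965, 5122 and 3242 reads against 229, 764 and 375, with a log2 fold change of 3.05 ± 0.33 (edgeR adjusted p = 3.8e-06). Heat shock protein 101 (Sb09g025900), a disaggregase, had 1854, 3848 and 3041 against 683, 717 and 901. In the small heat shock proteins the PEG libraries differed widely among themselves, with 129, 1973 and 702 reads of Sb01g041180 against 22, 92 and 84. PEG replicate 2 was the highest of the PEG libraries in each of these 3 genes. The heat shock factor HSF8-like Sb03g025770 was near absence in water (1.7, 1.4 and 3.4 reads) and had 47, 74 and 56 with PEG (4.63 ± 0.79, edgeR adjusted p = 0.00044). Of 9 tested heat shock factor family genes among those the study called, not all of them in that list, 4 were raised and 1 lowered. The lowered Sb01g046350 had 8.7, 54.2 and 44.5 reads against 32, 342.5 and 70.9, overlapped between groups, and was not called without H2O replicate 2. The small heat shock protein Sb01g040030 lost its call with the replicate block, where its log2 fold change of 0.98 lay just below the limit.

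Transcription factors of other families, as the study assigns them, also changed. The assignments were read only for genes that the study called, so the numbers tested are not whole families. They are to be read against the described genes, of which 12.9% were raised and 6.84% lowered. Of 9 tested NAC genes, 3 were raised and 1 lowered (3 and 2 without H2O replicate 2), and of 19 tested bZIP genes 4 were raised and 0 lowered (4 and 1). Of 20 tested MYB genes, 0 were raised and 1 lowered, of 7 MYB-related genes 2 and 3, and of 15 bHLH genes 1 and 1. In the keyword list of bZIP, MYB and homeobox factors, 0 of 25 were raised and 1 was lowered. The stress-induced factor NAC1 homolog Sb01g003710 had 1799, 1368 and 2332 reads against 449, 290 and 365 (log2 fold change 2.32 ± 0.30, edgeR adjusted p = 2.5e-05), and the NAC gene Sb08g001940 had 249, 391 and 335 against 30, 33 and 20 (3.55 ± 0.46, edgeR adjusted p = 3.2e-05). The NAC gene Sb07g005610 fell (109, 124 and 90 reads against 288, 241 and 280). Of 21 tested genes assigned to AP2-EREBP and ERF, 3 were raised and 0 lowered (2 and 1 without H2O replicate 2). In 1 further gene, with these labels in reverse order, the level was raised. The AP2-domain gene Sb01g045060, of a family of DNA-binding proteins specific to plants, has no family assigned by the study. It fell from 140, 130 and 100 reads to 9.9, 13.2 and 8.0. The bZIP gene Sb09g028990, similar to G-box binding factor 1, rose from 153.2, 138.6 and 122.6 reads to 420, 376 and 711. Sb01g003710 and Sb09g028990 lie outside the rule for named genes and were chosen after their values were seen.

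**Figure D3:**
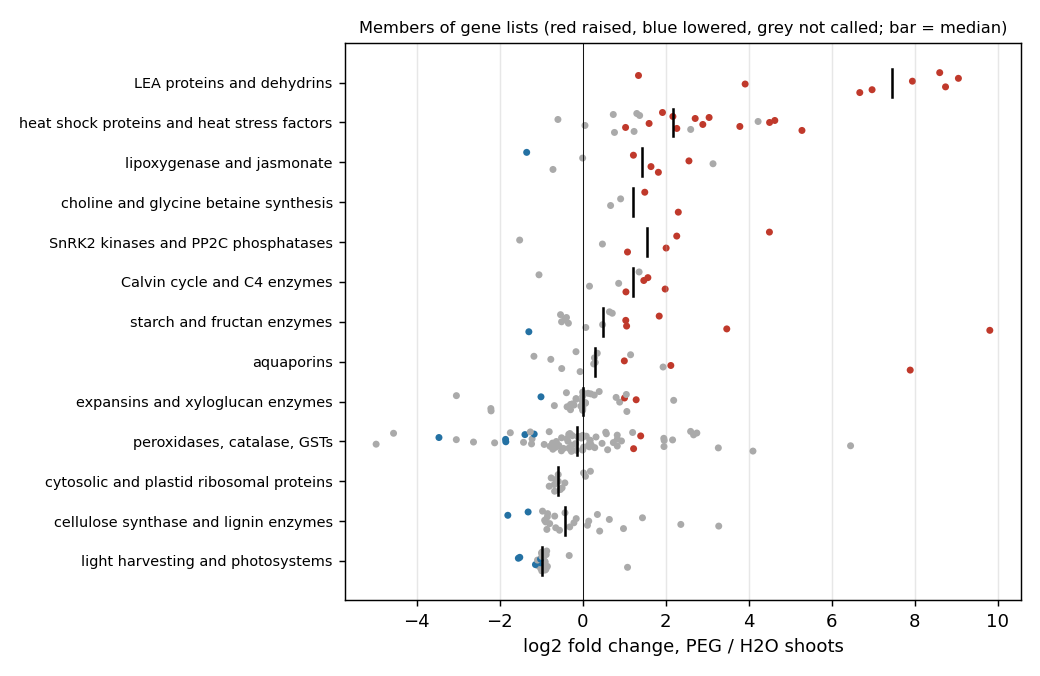
Log2 fold change (PEG over H2O shoots, all 6 libraries) of every tested member of 13 gene lists, 1 point per gene; red points were called raised, blue lowered and grey not called, and the bar is the median of the list. All 8 LEA and dehydrin genes lie to the right, with a median of 7.46, and the light-harvesting and photosystem genes lie close together around their median of -0.98. Grey points far from 0 are genes with few reads.

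Among the enzymes of starch and carbon metabolism, related genes did not all move together. The beta-amylase Sb01g019850, which releases maltose from starch, had 1580, 1521 and 2128 reads with PEG and 1.7, 2.8 and 1.1 in water, where only 4 reads lay behind the H2O values. A further beta-amylase, Sb01g047500, rose from 412, 308 and 447 reads to 4447, 3159 and 5354 (log2 fold change 3.47 ± 0.33, edgeR adjusted p = 7.5e-07). The most abundant beta-amylase, Sb02g035600, overlapped between groups (97510, 50695 and 86975 reads against 128738, 85599 and 120066). Of the genes of glucose-1-phosphate adenylyltransferase, which makes the ADP-glucose for starch, Sb09g029610 was raised (5002, 9802 and 5782 against 1283, 2590 and 1856) and Sb01g008940 lowered (4770, 4638 and 5265 against 13135, 10555 and 12350; -1.30 ± 0.21, edgeR adjusted p = 0.00024). Sucrose synthase 3 (Sb01g035890), which splits sucrose, rose from 200, 238 and 190 reads to 672, 1567 and 1111. Phosphoenolpyruvate carboxylase kinase, which activates phosphoenolpyruvate carboxylase, was raised in both described genes, from 214, 132 and 254 to 629, 461 and 696 reads in Sb04g036570 and from 768, 588 and 1016 to 1966, 1746 and 2878 in Sb04g026490. The carbonic anhydrase Sb03g029170 had 37131, 60692 and 44419 reads with PEG and 12064, 12607 and 11182 in water, but NaOH shoots, at 11135, 77509 and 19406, covered the range of both, and it was not called against that control. Among 8 genes of lipoxygenases and jasmonate metabolism, 4 lipoxygenases, which oxidise membrane fatty acids, were raised and 1 (Sb08g023120) was lowered. The raised Sb03g042440 had 7855, 8215 and 6706 reads against 453, 2643 and 762, so that its log2 fold change was 2.56 ± 0.43 with H2O replicate 2 and 3.64 without it.

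The list of wax and cutin genes held only non-specific lipid-transfer proteins, small proteins that bind lipids in the cell wall, and 3 of its 7 members were raised. Sb03g039880 rose from 323, 416 and 435 reads to 4239, 4338 and 4752 (log2 fold change 3.50 ± 0.27, edgeR adjusted p = 8.1e-08). The abundant Sb08g002690 had 90516, 69179 and 80283 reads against 43075, 23949 and 46224 and lost its call without H2O replicate 2 (0.84, edgeR adjusted p = 0.099). The nearby Sb08g002670 was not called with all libraries but passed with the replicate block (1.12, edgeR adjusted p = 0.027) and with library totals (1.33, edgeR adjusted p = 0.024). Of 14 aquaporins, the water channels of cell membranes, 3 were raised with all libraries and 3 without H2O replicate 2. In the latter fit NIP2-1 (Sb04g028020) lost its call and PIP1-5 (Sb04g037800) gained one. Against NaOH shoots 1 aquaporin was raised (TIP3-1, described below) and 1 lowered, and NIP2-1 was not called (0.96). PIP2-6 (Sb02g010830) had 426, 365 and 397 reads with PEG against 27, 168 and 74, while NaOH shoots (149, 400 and 117) reached the PEG level in replicate 2 and the gene was not called against them. TIP3-1 (Sb01g018430), an aquaporin of seed vacuoles, was called although PEG replicate 1 had 1.2 reads and replicates 2 and 3 had 324 and 90, so that the groups overlapped.

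Some of the largest rises were in genes with few or no reads in water. Globulin-1 (Sb01g012640), a storage protein of the embryo, had 11.1, 1973 and 224 reads in the PEG libraries against 2 reads in all H2O libraries together, a ratio of 758 (95% Poisson interval 210 to 6259, counting error only). The PEG values differed more than 100-fold among themselves. The cupin gene Sb01g043980, of the same protein fold, had 330, 140 and 266 reads against a single H2O read (ratio 544, 95% interval 97.7 to 21506), and the EC protein homolog Sb01g030345, a metallothionein of wheat embryos, had 202, 824 and 361 reads against 2. Other raised genes, without a described function, showed no read in any H2O library. Sb01g046000 (chromosome 1, bases 69077125 to 69078007) had 1320, 1413 and 1730 reads with PEG and was at least 1113-fold higher, taking 3 reads over the group as the limit that a count of 0 allows. By the same limit, Sb03g011090 was at least 350-fold and Sb09g003960 at least 224-fold higher.

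Of 23 light-harvesting and photosystem genes, 5 were lowered and 0 raised. Without H2O replicate 2, 9 were lowered, and against NaOH shoots 12. In 21 of 23 every PEG library was below every H2O library. Such a separation downwards was shown by 13.9% of all genes, and its share among described genes was not counted. The median log2 fold change of the 23 genes was -0.98, a fall of just under 2-fold, so that most members did not reach the limit. Their summed level was 816443 to 1123740 normalized reads with PEG and 1751380 to 2100860 in water. The largest called falls were in the chlorophyll a-b binding genes Sb03g027030 (chromosome 3, bases 54201285 to 54202631) and Sb03g027040 (bases 54239475 to 54240541). Sb03g027030 had 12461, 13536 and 19464 reads against 41306, 47400 and 44323 (log2 fold change -1.55 ± 0.31, edgeR adjusted p = 0.0021), and Sb03g027040 had 32358, 36193 and 53631 against 116062, 115536 and 117571 (-1.51 ± 0.49, edgeR adjusted p = 0.041). The latter call was lost with library totals (edgeR adjusted p = 0.059) and with DESeq2 (adjusted p = 0.145). The photosystem II protein Sb03g004730 was called with all libraries and lost the call with the replicate block, where its fall lay just inside the 2-fold limit. With library totals in place of TMM only 1 member was called lowered, because that scaling shifts all genes by 0.21. The described small subunit of ribulose bisphosphate carboxylase (Sb05g003480), the carbon-fixing enzyme of the bundle sheath, had 47505, 35446 and 44537 reads against 103966, 78001 and 82335 without reaching the threshold (-1.05 ± 0.46, edgeR adjusted p = 0.12), and passed it with the block (-1.05, edgeR adjusted p = 0.028). No ribosomal protein gene was called among 13, and their median log2 fold change was -0.59.

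The zinc transporter Sb07g005140 (chromosome 7, bases 6930171 to 6933232) had 43, 0 and 26 reads with PEG and 1177, 277 and 717 in water, a log2 fold change of -4.96 ± 0.74 (edgeR adjusted p = 0.00013). Within each experiment the PEG library was far below its water control. The ammonium transporter 1-1 (Sb06g022230) fell from 3131, 2243 and 3283 reads to 730, 724 and 814, and the organic cation transporter Sb02g036370 from 596, 437 and 539 to 57, 53 and 33. Adjacent polygalacturonase inhibiting proteins, which block fungal pectin-degrading enzymes, fell together on chromosome 9. Sb09g000440 (bases 220694 to 221731) had 47, 13 and 46 reads against 879, 125 and 692 (-3.97 ± 0.81, edgeR adjusted p = 0.0023), and Sb09g000450 (bases 223935 to 225025) had 126, 52 and 115 against 1002, 359 and 844. The chitinases Sb09g001210 and Sb06g016510, enzymes that cleave fungal cell walls, had their lowest H2O value in replicate 2, 200 and 36 reads against at least 892 and 111 in the other H2O libraries. Peroxidase 6 (Sb04g008630) fell from 66, 110 and 58 reads to 6.2, 9.6 and 5.3, whereas the chloroplast ascorbate peroxidase 7 (Sb06g017080), which removes hydrogen peroxide, rose from 5100, 4309 and 4828 to 13300, 11029 and 13194. The cellulose synthase-like gene Sb06g016770 (CslH1), of a family that makes mixed-linkage glucan in barley walls, fell from 2123, 3134 and 3355 to 536, 1060 and 872 (-1.80 ± 0.31, edgeR adjusted p = 0.00042).

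**Figure D4:**
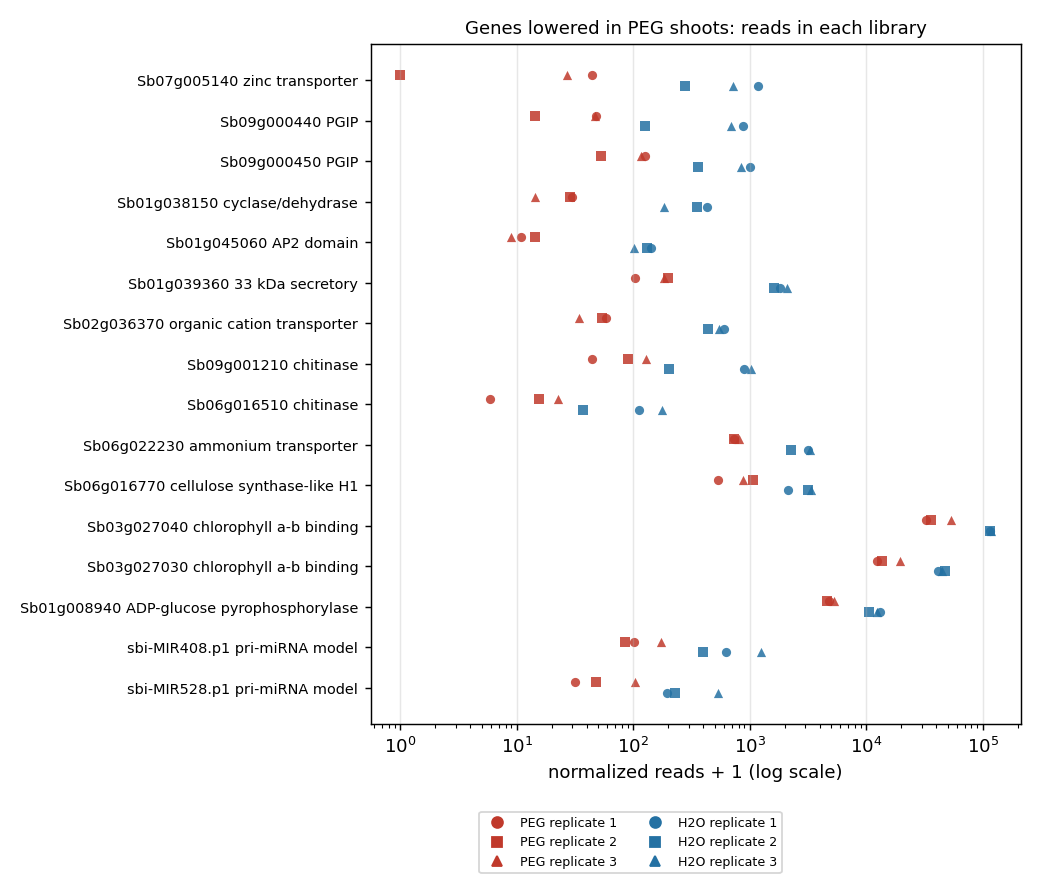
Normalized reads plus 1 (log scale) of 16 gene models lowered in PEG shoots, 1 point per library (red PEG, blue H2O; circle, square and triangle are replicates 1, 2 and 3). In each model all PEG points lie to the left of all H2O points; the zinc transporter has 0 reads in PEG replicate 2, and H2O replicate 2 is the lowest blue point in both chitinases and both polygalacturonase inhibiting proteins (PGIP).

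Of 149 pri-microRNA models, which are precursor transcripts of the short regulatory RNAs, 23 were tested, 3 were lowered and 0 raised, compared with 2.00% and 2.73% of all genes. Without H2O replicate 2, 6 were lowered and 1 raised (3.50% and 5.46% of all genes): sbi-MIR167d, sbi-MIR399h and sbi-MIR437.p13 were added to the lowered models, and sbi-MIR396c was raised. The precursor sbi-MIR408.p1 (chromosome 3, bases 15944292 to 15944496) had 100, 83 and 173 reads with PEG and 619.4, 392.4 and 1242.2 in water (log2 fold change -2.65 ± 0.57, edgeR adjusted p = 0.0033). The precursor sbi-MIR528.p1 (chromosome 1, bases 71476711 to 71476794) had 31, 47 and 103 against 192, 227 and 532 (-2.37 ± 0.61, edgeR adjusted p = 0.012). Both groups were separated in each model, and both were lowered without H2O replicate 2 and against NaOH shoots as well. Known targets of miR408 in Arabidopsis, and of miR528 in grasses, include transcripts of copper-containing proteins. The third was sbi-MIR167e, with 43, 27 and 36 reads against 136, 56 and 90.

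For several of these genes the study designed primers for quantitative PCR in the last exon, and those of 3 genes described above are given because they mark the stretch of the transcript by which a reader could measure the same change. They are written 5′ to 3′.
Sb03g039360 (heat shock 70 kDa) forward: ctatgtcgccttcaccgacac
Sb03g039360 (heat shock 70 kDa) reverse: cacagcttcatgtcactctgaac
Sb09g027360 (phosphoethanolamine N-methyltransferase) forward: atgttctacggagggagctagg
Sb09g027360 (phosphoethanolamine N-methyltransferase) reverse: cagagctccgtttcagcttc
Sb06g016770 (cellulose synthase-like H1) forward: accctttgagctgtgctacg
Sb06g016770 (cellulose synthase-like H1) reverse: atgacgaaacccggttctga

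The genes whose call turned on H2O replicate 2 were next compared with NaOH shoots as the control. That comparison shares the PEG libraries, and it called 1170 genes (5.16%), 578 raised (2.55%) and 592 lowered (2.61%). Of the 678 genes raised only without it, 17 (2.51%) were also called raised against NaOH shoots, compared with 497 of the 572 genes (86.9%) raised in both fits. The corresponding numbers for lowered genes were 86 of 378 (22.8%) and 344 of 424 (81.1%). In the 678 genes the median log2 difference from the mean of H2O replicates 1 and 3 was 1.51, 1.87 and 1.32 in the PEG libraries, 1.87 in H2O replicate 2 and 0.48, 1.52 and 1.09 in the NaOH libraries. The high value in H2O replicate 2 follows from how these genes were chosen. The NaOH libraries entered that choice only through the low-count filter, the scaling and the spread of the joint fit. Deviations from the group means correlated at 0.520 between NaOH replicate 2 and H2O replicate 2, so the NaOH control is not fully independent. In the 572 genes raised in both fits the same median was 2.04, 2.17 and 2.34 with PEG, 0.20 in H2O replicate 2 and at most 0.38 in the NaOH libraries.

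Histone genes made up the clearest group among them. Of 16 listed genes of histones, cyclins and DNA replication, 0 were called with all libraries and 12 were raised without H2O replicate 2 (median log2 fold change 0.61 and 1.93). The 12 were the described genes of the core histones H2A, H2B and H4, chosen for display after their values were seen, and 4 further models described as histones H3 and H4 behaved alike. The median level of the 12 was 654, 792 and 568 reads with PEG, 107, 991 and 228 in water, 263, 996 and 531 with NaOH and 231 to 286 with ABA. H2O replicate 2 was above the other H2O libraries in all 12 and above every PEG library in 11. For histone H2A Sb01g000950, for example, 637, 833 and 530 reads with PEG faced 74, 1040 and 177 in water and 266, 1014 and 529 with NaOH. Its log2 fold change was 0.63 ± 0.56 with all libraries (edgeR adjusted p = 0.48) and 2.37 ± 0.41 without H2O replicate 2 (edgeR adjusted p = 0.00041). Against NaOH shoots the log2 fold changes of the 12 lay between -0.07 and 0.25, with no adjusted p below 0.77. With the replicate block, 2 of the 16 were called, Sb03g004870 (1.16, edgeR adjusted p = 0.013) and Sb04g030340 (1.06, edgeR adjusted p = 0.033). A set of 100 root marker genes, chosen from NaOH libraries, moved with the same libraries: their summed level was 132, 146 and 116 CPM in the PEG shoots and 44.7, 138 and 65.9 CPM in the H2O shoots, against 32386 CPM in NaOH roots, with 4 of the 100 at 0 reads in all 6 libraries. The part of root tissue in these results was not tested.

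**Figure D5:**
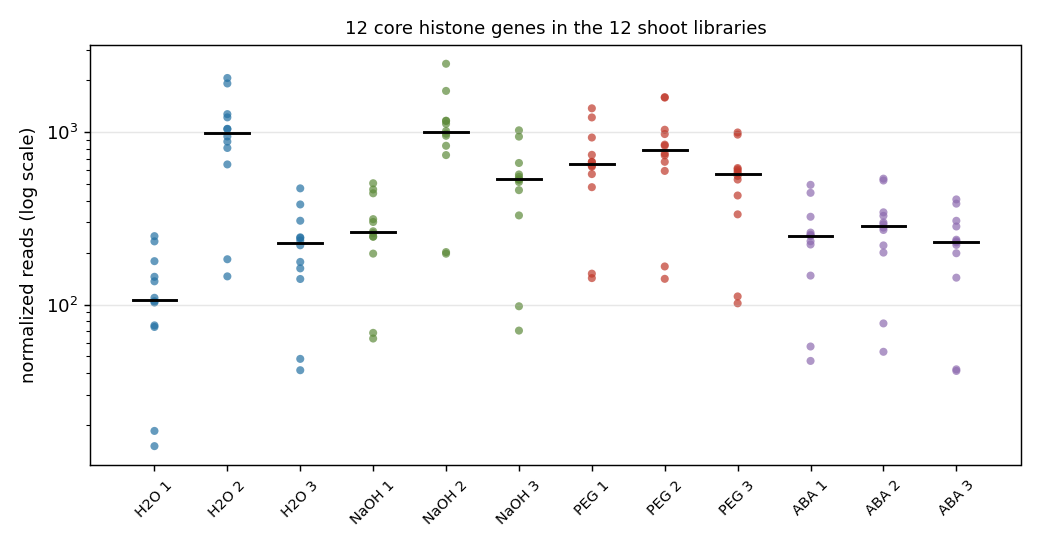
Normalized reads (log scale) of 12 core histone genes in the 12 shoot libraries, 1 point per gene and library, with a bar at the median of each library; colours mark H2O, NaOH, PEG and ABA. The bar of H2O replicate 2 is at 991 reads, near that of NaOH replicate 2 (996) and above the PEG bars (568 to 792), while H2O replicates 1 and 3 are at 107 and 228.

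Other genes raised without H2O replicate 2 but not with all libraries were endoglucanase 17 (Sb10g009270), which cuts cell wall glucan, with 152, 193 and 113 reads against 6.7, 148 and 30, and a leucine-rich repeat gene (Sb01g038140) with 148, 178 and 105 against 11.8, 170 and 22. The heat shock cognate 70 kDa gene Sb09g022580 had 293, 1414 and 593 against 93, 728 and 109. In all 3 genes H2O replicate 2 overlapped with the PEG range, and all 3 were also called with all libraries when the replicate number was a block (1.56, 1.43 and 1.45, edgeR adjusted p = 0.017, 0.021 and 0.0086). In the opposite class, called only with all libraries, were a profilin (Sb03g034110), an actin-binding protein that fell from 269, 1177 and 478 reads to 182, 254 and 173, and the arabinogalactan protein Sb03g030690, which fell from 1981, 5018 and 3387 to 1489, 1911 and 1484. Here H2O replicate 2 was the highest water library, and without it the log2 fold changes were -0.89 and -0.72. The WSI76 homolog Sb02g043450, similar to a water-stress protein of rice, rose from 173, 104 and 245 to 710, 295 and 682 and missed the threshold narrowly without that library (1.42, edgeR adjusted p = 0.055).

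The PEG response of shoots was then set beside that of roots of the same plants and beside the ABA response of shoots. The tests were of the difference itself (adjusted p below 0.05 and a log2 difference of at least 1). Root and shoot libraries were treated as independent, and the block was set within each tissue, so the sharing of plants was not modelled. Between shoots and roots the effect of PEG differed in 924 genes (4.08%), and in 1629 with the replicate block and 2319 without H2O replicate 2. In roots themselves 1107 genes (4.88%) were called between PEG and H2O without the depth cutoff, 663 raised (2.92%) and 444 lowered (1.96%). By that looser rule 1492 genes were called in shoots, 892 raised and 600 lowered. The difference was positive in 2.06% of all genes and negative in 2.02%. Of the 619 genes raised in shoots, 171 were also called raised in roots and 10 lowered, and of the 453 lowered genes 28 were also lowered in roots and 10 raised. A gene without a described function, Sb09g020240, had 575, 625 and 624 reads in PEG shoots and 39, 46 and 43 in H2O shoots, but 17.3, 14.7 and 15.1 in PEG roots and 14.5, 12.2 and 17.2 in H2O roots (difference of log2 fold changes 3.76 ± 0.38, edgeR adjusted p = 1.6e-05). The chloroplast fructose-1,6-bisphosphatase Sb01g039980, an enzyme of the Calvin cycle, fell in shoots (2674, 1884 and 2555 against 5939, 5219 and 5146) and rose in roots from a very low level (66, 38 and 13 against 3.3, 5.6 and 2.1). Between PEG and ABA in shoots 405 genes (1.79%) differed (1.04% upwards and 0.746% downwards), 1125 with the block and 1918 without H2O replicate 2. ABA against NaOH in shoots, also without the depth cutoff, called 2269 genes (10.0%), 942 raised (4.16%) and 1327 lowered (5.85%). Of the 619 genes raised by PEG, 333 were also raised by ABA and 9 lowered, and of the 453 lowered genes 222 were also lowered by ABA and 2 raised. The plasma membrane peroxidase Sb02g042860 fell with PEG (338, 258 and 306 against 1204, 735 and 1313) and rose with ABA (3414, 1860 and 2666 against 1324, 789 and 1300 in NaOH shoots), a difference of -3.07 ± 0.38 (edgeR adjusted p = 0.00027). The unnamed gene Sb07g005880 had 414, 454 and 436 reads with PEG and 16.8, 9.7 and 11.3 in water, but 12.9, 18.7 and 14 with ABA and 11.7, 23.6 and 8.2 with NaOH. Alpha-expansin 1 (Sb03g038290), a wall-loosening protein, fell with PEG from 3240, 3303 and 4708 to 2060, 1406 and 2145 (a log2 fold change just past the limit) and further with ABA, to 260, 269 and 296 reads from 2977, 3592 and 5511; with the replicate block its PEG log2 fold change was -0.99 and it was no longer called.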

How the data were processed

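The authors sequenced poly(A) RNA on a Genome Analyzer IIx, trimmed reads to 50 bases, aligned them to sorghum build sbi1 with ELAND_rna and counted unique matches over exons without strand in CASAVA 1.6 (the submitters' processing notes also name edgeR). The raw counts the authors deposited are aligned bases per gene, not reads, so they were divided by 50 and rounded; 91.4% of the nonzero values are multiples of 50. The deposited depth signal (bases per exon length) served only for the 2X cutoff. The RPKM values the authors deposited and the exon length were not used in tests. Genes without unique reads, near-identical copies such as histones, and antisense overlaps cannot be resolved by such counting.

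All 24 libraries were fitted together with a mean for each of 8 groups in R 4.3.3 with edgeR 4.0.16: low counts filtered by filterByExpr, TMM scaling and a robust quasi-likelihood test, two-sided, with Benjamini-Hochberg adjustment over 22667 genes. The common biological coefficient of variation was 0.2054. The test was also run on simulated counts, with the same spread for every gene and no replicate effect or outlying library. That run cannot speak to H2O replicate 2 or to the pairing. DESeq2 1.42.0 was run as an alternative. Each SE was derived from the fold change and its F statistic. Replicate numbers pair the libraries, because the study repeated the whole hydroponic experiment for each number; deviations from the group means of same-numbered PEG and H2O shoots correlated at 0.288, 0.468 and 0.225, and those of differently numbered libraries at -0.400 to 0.206. An alternative fit held the replicate number as a block.

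Named genes were the 12 largest rises and falls called with and without H2O replicate 2, not overlapping between groups, with at least 100 normalized reads in 1 group and a description; the 3 largest of each direction regardless of description; up to 4 called members of each list with the smallest p and all members of lists of 8 or fewer; 5 of each direction called in only 1 of the fits; and 3 of each direction per interaction. Some heat shock, beta-amylase, core histone, transcription factor and pri-microRNA genes beyond these were chosen after their values were seen. Members and lists were chosen with earlier results of these data known. The keyword for a clock gene also matched efflux proteins, and this match was removed. No described gene matched casparian strip proteins, pyruvate phosphate dikinase or NADP-dependent malic enzyme. Promoter motifs were not analysed here.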

Additional observations from a re-analysis of the deposited data

Results flagged for a closer look

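The following genes were selected because the effect of PEG in shoots differed, by the interaction test of the 24-library fit, from the effect of PEG in roots or of ABA in shoots. Relative to roots, the log2 fold change in shoots was higher by 6.20 in Sb04g023920, 4.11 in Sb09g029260 and 3.76 in Sb09g020240, all of which rose in every PEG shoot library. The difference was -4.55 in the fructose-1,6-bisphosphatase Sb01g039980, -1.87 in Sb02g028510 and -1.81 in the putative calcium binding protein Sb04g028730, which fell in shoots. Relative to ABA, the PEG log2 fold change was higher by 5.10 in Sb07g005880, 3.47 in Sb09g029130 and 2.87 in alpha-expansin 1 (Sb03g038290). It differed by -3.07 in the peroxidase Sb02g042860, -1.29 in Sb04g034850 and -1.24 in Sb05g000365. Each group held 3 libraries. The numbers of genes called for both interactions without H2O replicate 2 are given below. The values of these 12 genes with single libraries left out are not given.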

How the results depend on the processing

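Besides the fit without H2O replicate 2 (2052 called, 1250 raised, 802 lowered), the number of calls moved by more than 1.5 times in these settings. A fit of the 6 libraries alone called 664 genes, 411 raised and 253 lowered. Library totals gave 248 lowered, the common-dispersion exact test 980 raised, and no fold cutoff 3175 in all (1426 and 1749). Leaving out 1 library at a time gave 853 to 2052 calls, 538 to 1250 raised and 305 to 802 lowered. Chosen after seeing the data, without replicate 1, 2 or 3 of both groups 728 to 1562 were called (447 to 1072 raised, 281 to 490 lowered), and H2O replicate 2 left out together with the replicate block gave 1791 (1160 raised), with 6 libraries 1734 (1037 and 697) and with DESeq2 2101 (1171 and 930). The interaction with roots moved from 924 to 2319 genes without H2O replicate 2 and 1629 with the replicate block, and that with ABA from 405 to 1918 and 1125. The block called 1270 genes, 1050 of them among the 1072. NaOH against H2O shoots called 0 genes. The sign of the fold change was compared between settings only for the 160 named genes. Signs turned only in genes that were not called with all libraries: Sb01g000580 with 1 library left out (-0.12 to 0.35) and against NaOH (-0.15), Sb02g039860 against NaOH (-1.52), Sb03g012890 with 1 library left out (-0.094 to 0.28) and against NaOH (-0.16), Sb03g029180 (-0.13) and Sb06g024946 (-0.98) against NaOH, Sb05g003130 (-6.67 to 0.45) and Sb06g024950 (-0.14 to 0.69) with 1 library left out. The cause was not tested. Promoter motifs could not be run.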

Other observations

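Several called genes lay next to each other. Of the 619 raised genes, 86 (13.9%) had an adjacent gene model that was also raised, and of the 949 tested neighbours of raised genes 9.27% were raised, against 2.73% of all tested genes. For the 453 lowered genes, 43 (9.49%) had a lowered neighbour, and 6.46% of 681 tested neighbours were lowered against 2.00% overall. Adjacent copies of 1 family may share sequence, and a read that matches more than 1 copy was left out by the authors' counting, so levels of such copies are uncertain. The examples that follow were chosen after their values were seen.

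The S-like ribonucleases Sb02g031160 and Sb02g031170, enzymes that degrade RNA outside the cytosol, had 25624, 20982 and 20802 and 77332, 67312 and 62824 normalized reads with PEG. In water they had 2252, 959 and 2720 and 9093, 3373 and 7052, so that they rose by 3.51 ± 0.38 and 3.41 ± 0.68 on the log2 scale (edgeR adjusted p = 3.3e-06 and 0.0022). The xylanase inhibitors Sb02g004650 and Sb02g004660, which block fungal wall-degrading enzymes, rose from 126, 209 and 183 to 356, 3346 and 933 reads and from 195, 444 and 366 to 2897, 15098 and 5234, with PEG replicate 2 the highest in both. The LTI6B genes Sb09g003050 and Sb09g003060, which encode small hydrophobic membrane proteins, rose from 59, 42 and 56 to 342, 173 and 282 and from 15.1, 16.6 and 14.6 to 820, 372 and 754. An oleosin (Sb01g050670), the coat protein of seed oil bodies, rose from 39, 22 and 45 to 1721, 852 and 1331 reads (5.19 ± 0.81, edgeR adjusted p = 0.00018).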
